A study of Mus musculus with 22 samples.

Results

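The 10 genes described here, Fap, Pdgfra, Pdgfrb, Pdpn, Postn, Tnc, Dcn, Lum, S100a4 and Thy1, are genes commonly used to mark cancer-associated fibroblasts, and were taken as a named list from the 46882 genes of the wild-type and RAG1-/- count table. Their RNA was measured in 16 libraries. There were 2 libraries of cultured MC38 cells, a chemically induced C57BL/6 colon adenocarcinoma cell line, and 2 of normal skin from wild-type mice, labelled day 23. Tumors had grown from MC38 cells injected under the skin. Of wild-type C57BL/6N hosts there were 3 tumors each at day 23 and day 46, and of hosts labelled RAG1-/- there were 3 each at day 13 and at day 23. The mice were 8 to 12 weeks old, and RAG1-/- mice, which carry the allele Rag1tm1Mom, form no mature T or B cells. Both strains received MC38 cells, and 1 piece of each excised tumor was used for RNA. The labels call the tumor samples tumor cells, but they are whole tumor pieces that hold host cells too.

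Fibroblasts of a tumor come from host tissue and build its matrix. Fap is a cell surface protease. Pdgfra and Pdgfrb are the receptors of platelet-derived growth factors, which drive fibroblast and pericyte growth. Pdpn (podoplanin) and Thy1 (CD90) are surface glycoproteins. Postn (periostin) and Tnc (tenascin C) are matricellular proteins that are made in wounds and tumors. Dcn (decorin) and Lum (lumican) are small leucine-rich proteoglycans that bind collagen fibrils. S100a4, also called fibroblast-specific protein, is a calcium-binding protein that many other cells make as well. None of these genes is exclusive to fibroblasts: pericytes hold Pdgfrb, lymphatic endothelium Pdpn, and T cells Thy1.

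Of the 10 genes, 5 were all but absent from MC38 cells and 5 were not. Fap, Tnc, Lum and Thy1 had 0 reads in both MC38 libraries, and Postn had 1 read in each. Pdgfra, Pdgfrb, Pdpn, Dcn and S100a4 had at least 180 reads in each MC38 library. In the tumors, all 10 genes had reads in all 12 libraries, the fewest being 4 reads of Fap. All values below are normalized counts, that is reads divided by a library size factor. QuantSeq reads only the 3′ end of a transcript, and levels are not compared between genes here.

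Promoter sequences from RefSeq (GRCm38.p6) were at hand for 5 of the 10 genes, Postn, Tnc, S100a4, Pdpn and Pdgfra. Those of Postn and Tnc, which varied together across tumors and had at most 1 read per library in MC38 cells, and that of S100a4, with 14433 and 17677 normalized counts in the MC38 libraries, are shown. Each is the 250 bases before a transcript start, 5′ to 3′ on the gene's strand, with TATAAA in capitals.
Postn, chr3:54360857-54361106, plus strand: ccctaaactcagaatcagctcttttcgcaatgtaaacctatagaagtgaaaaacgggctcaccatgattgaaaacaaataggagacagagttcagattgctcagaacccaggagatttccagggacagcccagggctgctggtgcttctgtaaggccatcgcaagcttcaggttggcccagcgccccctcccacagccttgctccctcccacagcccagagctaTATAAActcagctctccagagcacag
Tnc, chr4:64047016-64047265, minus strand: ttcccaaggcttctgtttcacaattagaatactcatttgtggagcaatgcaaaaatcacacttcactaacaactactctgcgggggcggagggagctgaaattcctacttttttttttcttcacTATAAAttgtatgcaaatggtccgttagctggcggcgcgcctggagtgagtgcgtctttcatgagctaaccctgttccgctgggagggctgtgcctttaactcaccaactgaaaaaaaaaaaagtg
S100a4, chr3:90603520-90603769, plus strand: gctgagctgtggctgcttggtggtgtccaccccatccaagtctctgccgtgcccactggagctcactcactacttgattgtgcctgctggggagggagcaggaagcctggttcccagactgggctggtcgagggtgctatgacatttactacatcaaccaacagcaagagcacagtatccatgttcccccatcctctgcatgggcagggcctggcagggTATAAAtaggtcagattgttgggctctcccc
The letters TATAAA, searched on both strands in windows of 300 bases that run 50 bases past the start, began at position -26 from the start in Postn, -31 in S100a4 and -126 in Tnc. They were in neither the Pdpn nor the Pdgfra window, and 13.6% of 32544 promoters of that length hold them. A second Postn start, at the end of chr3:54359017-54359266, lacked them. A second Tnc window, which overlaps the first, held the same match. TGANTCA, in 7.79% of promoters, CATTCC, in 14.6%, and the CArG box, in 1.64%, were in none of the 7 windows of the 5 genes. The windows shown of Postn, Tnc and S100a4 held 5, 10 and 2 CpG. The second windows of Postn and Tnc held 4 and 16, those of Pdpn and Pdgfra 7 and 5, and the median promoter held 7. A match of letters is a description, and the data hold no measurement of binding.

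Some facts of the libraries bear on what follows. The libraries held 5589151 to 26134241 reads on genes, so that 3 reads, taken as the smallest level that can be told from 0, stood at 1.33 to 6.38 normalized counts. These floors cover counting error only. Skin and tumors differed in more than the tumor: the skin libraries had 1803 and 1919 normalized counts of the Y-linked gene Ddx3y and 0 of Xist, while the 12 tumors had 105 to 352 of Xist and at most 1 read of Ddx3y, so skin donors and tumor hosts differed in sex, which cannot be told apart from the tissue. Rag1 had reads in 6 of 6 tumors labelled RAG1-/-, at most 12, and in 1 of 6 wild-type tumors, but reads at the 3′ end do not check a deletion in the coding part. The T cell gene Cd3e followed the labels, with 0 reads in 6 of 6 tumors labelled RAG1-/- and 3.91 to 23.2 normalized counts in wild-type tumors. Of genes that mark other cells, 9 summed macrophage genes stood at 15831 to 32957 in tumors, 12116 to 12734 in skin and 43.6 to 68.4 in MC38 cells. The 6 summed skeletal muscle genes stood at 102133 to 160257 in skin, at 9436 and 9232 in RAG1-/- day 13 tumors 1 and 3, and at 49.9 to 1473 in the other 10 tumors. The 7 summed epidermal genes stood at 380676 to 389770 in skin, at 1981 in wild-type day 23 tumor 2, at 231 to 700.4 in the other 11 tumors, and at 308 to 330.4 in MC38 cells. The labels do not say whether the MC38 and skin samples are separate cultures or animals, so p-values measure only the spread between samples. In whole tissue, fewer cells of a type and less RNA per cell cannot be told apart.

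**Figure D1:**
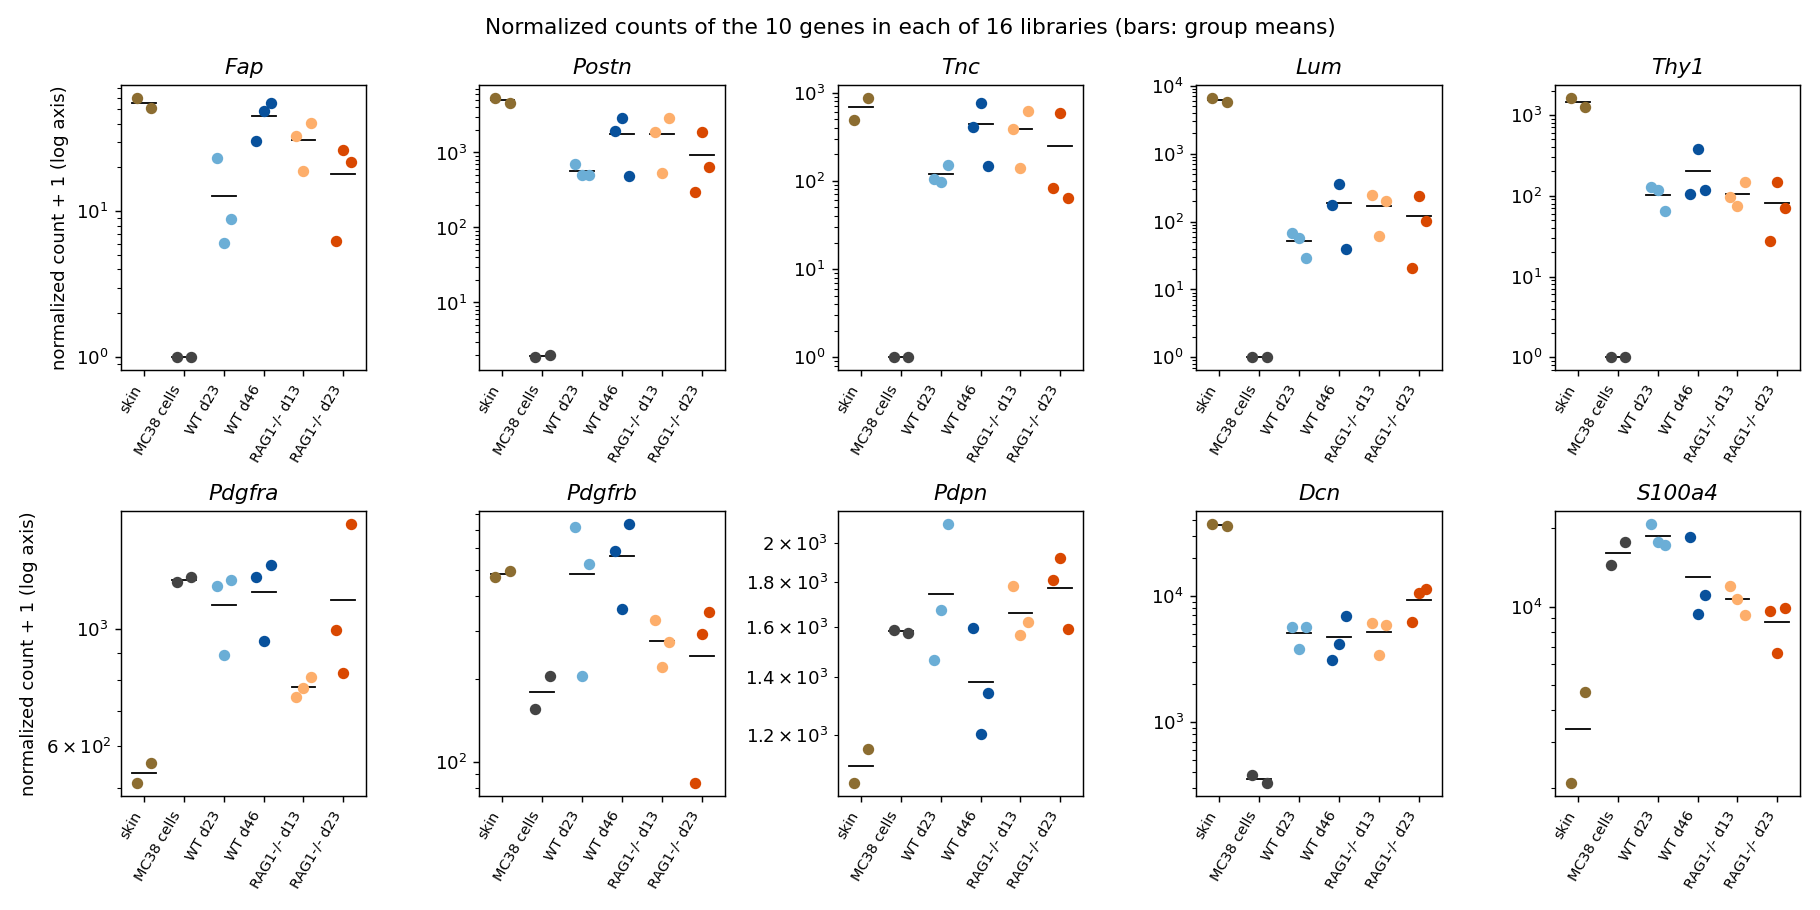
Normalized counts plus 1 on log axes for the 10 genes, with 1 point per library and a bar at each group mean, in skin and MC38 cells (2 libraries each) and 4 groups of 3 tumors. In the upper row are the 5 genes with at most 1 read in each MC38 library, which were detected in all 12 tumors; in the lower row are the 5 genes with at least 180 reads there.

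The first comparison asked how far these genes in tumors differed from cultured MC38 cells, the cells that were injected. Postn, Tnc, Lum, Thy1, Fap and Dcn were higher in tumors, and Pdgfra, Pdgfrb, Pdpn and S100a4 did not pass the test. Thus 6 of 10 genes were called higher and 0 lower, by limma on log2(normalized count + 1) with Benjamini-Hochberg adjustment over all 16158 genes tested and a threshold of 0.05. Of all genes tested, 16.5% were called higher and 8.01% lower. The median log2 difference over the 10 genes was 4.21, or 3.61 with the 4 genes at 0 reads set at their lower bound, beside 0.07 over all genes.

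Postn stood at 0.856 and 0.978 normalized counts in MC38 cells, which is 1 read in each. In wild-type tumors it stood at 692, 504 and 507 at day 23 and at 1948, 2881 and 480.3 at day 46. In RAG1-/- tumors it stood at 1868, 534 and 2924 at day 13 and at 296, 1864 and 634 at day 23. The lowest tumor was far above the MC38 cells, and within 3 of the 4 tumor groups the values split into high and low tumors. The mean of the tumors, 1261 ± 978 (SD, n = 12), was 1376 times that of MC38 cells, with an interval of 381 to 11359 from counting the 2 reads alone. The log2 fold change was 8.94 ± 0.64 (SE, limma, adjusted p = 1.65e-08).

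Tnc had 0 reads in MC38 cells. It stood at 105, 96.3 and 151 normalized counts in wild-type tumors of day 23, at 405, 755 and 145 at day 46, at 388, 139 and 622 in RAG1-/- tumors of day 13 and at 82.5, 587 and 63.2 at day 23. The tumors high in Postn were also the 5 highest in Tnc. The tumor mean was at least 107-fold higher than in MC38 cells, against a floor of 3 reads per library (limma, adjusted p = 2.80e-07).

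Lum also had 0 reads in MC38 cells. Its normalized counts were 67.1, 56.3 and 28.5 in wild-type tumors of day 23, 174, 351 and 38.9 at day 46, 249, 61.2 and 203 in RAG1-/- tumors of day 13 and 19.6, 240.4 and 101 at day 23. Against the same floor the tumor mean of 133 ± 108 (SD, n = 12) was at least 48.2-fold higher (limma, adjusted p = 6.97e-06). The lowest tumor still had 15 reads.

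Thy1 had 0 reads in MC38 cells too. It stood at 127, 116 and 63.4 normalized counts in wild-type tumors of day 23, at 105, 379 and 117 at day 46, at 96.3, 73.4 and 145 in RAG1-/- tumors of day 13 and at 26.2, 147 and 69.8 at day 23. The highest was wild-type day 46 tumor 2 and the lowest RAG1-/- day 23 tumor 1. The tumor mean was at least 44.4-fold higher (limma, adjusted p = 5.23e-08). Thy1 is also a T cell gene, and 9 summed T cell genes stood at 36.2 to 252 in wild-type tumors and 5.24 to 40.01 in RAG1-/- tumors, where Cd3e, Cd3g and Cd8b1 had 0 reads in all 6. Thy1 was at 26.2 to 147 in those 6 tumors, and the part of T cells or of other cells in its levels was not tested.

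Fap had the fewest reads of the 10 in tumors. It had 0 reads in MC38 cells and stood at 22.1, 5.11 and 7.92 normalized counts in wild-type tumors of day 23, at 29.3, 47.7 and 54.6 at day 46, at 32.1, 17.8 and 39.1 in RAG1-/- tumors of day 13 and at 5.24, 25.5 and 20.8 at day 23. Its tumor mean was at least 9.31-fold higher (limma, adjusted p = 1.59e-05).

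Dcn differed from these 5 genes in that MC38 cells held it, at 376 and 327 normalized counts (440 and 334 reads). It stood at 5645, 3769.6 and 5712 in wild-type tumors of day 23, at 3106, 4169.6 and 6925 at day 46, at 6112, 3422 and 5873 in RAG1-/- tumors of day 13 and at 6191, 10488 and 11408 at day 23. The tumor mean was 17.3 times that of MC38 cells, a log2 fold change of 3.999 ± 0.277 (SE, limma, adjusted p = 1.12e-08), and no tumor overlapped the MC38 cells. The share of all genes without overlap between tumors and MC38 cells was not counted.

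The other 4 genes overlapped between the cell line and the tumors. Pdgfra stood at 1220.1 and 1250.3 normalized counts in MC38 cells, at 1200.0, 891 and 1231 in wild-type tumors of day 23, at 1251, 947 and 1317 at day 46, at 743, 773 and 808 in RAG1-/- tumors of day 13 and at 991, 823 and 1575 at day 23. The log2 difference of tumors from MC38 cells was -0.28 (95% interval -0.65 to 0.09, limma, adjusted p = 0.321). Pdgfrb stood at 154 and 203 in MC38 cells, at 715, 205 and 523 in wild-type tumors of day 23, at 582, 359 and 736 at day 46, at 328, 220.2 and 272 in RAG1-/- tumors of day 13 and at 82.5, 292 and 351 at day 23. Its log2 difference was 0.91 (95% interval 0.03 to 1.80, limma, unadjusted p = 0.0606, adjusted p = 0.162). This normal interval is narrower than the limma test would give, so its lower end is not a sign of a difference. Without RAG1-/- day 23 tumor 1, the only tumor below both MC38 libraries, the log2 difference of Pdgfrb was 1.08 (limma, adjusted p = 0.0331). Pdgfrb passed in that 1 alternative and did not pass in the other 24 of 25.

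Pdpn varied least. It stood at 1585 and 1574 normalized counts in MC38 cells, at 1462, 1670.0 and 2103 in wild-type tumors of day 23, at 1593, 1199.8 and 1342 at day 46, at 1782, 1566 and 1620.5 in RAG1-/- tumors of day 13 and at 1811, 1917 and 1588 at day 23. Its log2 difference was 0.04 (95% interval -0.23 to 0.30, limma, adjusted p = 0.884). S100a4 stood at 14433 and 17677 in MC38 cells, at 20840.0, 17747 and 17306 in wild-type tumors of day 23, at 18507, 9346 and 11068 at day 46, at 12018, 10711 and 9264 in RAG1-/- tumors of day 13 and at 9613, 6611 and 9859 at day 23. Its log2 difference was -0.41 (95% interval -0.92 to 0.10, limma, adjusted p = 0.291). All 4 are normal intervals around the fitted difference, and a difference that misses the threshold does not show that levels are equal.

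The wider fibroblast gene lists, written with earlier results of these data known, were read against the same background of 16.5% higher. Of 8 genes for fibrillar collagens and their cross-linking, 7 were higher in tumors than in MC38 cells, with a median log2 difference of 4.39. Col1a1, a chain of type I collagen, had a mean of 14.6 normalized counts in MC38 cells and 3448 ± 2876 (SD, n = 12) in tumors (log2 fold change 8.46 ± 0.76, SE, limma, adjusted p = 3.15e-07). Of 8 myofibroblast genes 7 were higher, among them Acta2, smooth muscle actin (log2 fold change 4.80 ± 0.47, limma, adjusted p = 7.61e-07), and Tpm2, a tropomyosin, did not pass (0.28 ± 0.14, limma, adjusted p = 0.158). Of 11 tested genes of inflammatory fibroblasts 5 were higher and 1 lower, and of these Dpt, dermatopontin, was higher (2.33 ± 0.59, limma, adjusted p = 0.00825) and Cxcl12, a chemokine, did not pass (1.83 ± 0.67, adjusted p = 0.0583). The other small leucine-rich proteoglycans were higher in 5 of 8, among them Bgn, biglycan (8.89 ± 0.59, limma, adjusted p = 5.97e-09). Of the other matricellular genes 6 of 11 were higher and 1 lower, and Fn1, fibronectin, was among the higher (3.16 ± 0.32, limma, adjusted p = 1.14e-06).

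All 4 ligands of the receptors Pdgfra and Pdgfrb were higher in tumors than in MC38 cells, by 0.72 (Pdgfa), 1.79 (Pdgfb), 2.59 (Pdgfc) and 3.19 (Pdgfd) on the log2 scale, with limma adjusted p of 0.00923, 0.0469, 0.014 and 0.0112. Pdgfd had 0 reads in MC38 cells. Pdgfb had a mean of 1.28 normalized counts in MC38 cells and group means of 4.07 to 10.6 in tumors. These lie near the floors of 3 reads, 1.33 to 6.38. The ligands were called and the receptors were not, but whether ligands and receptors differ in their change was not tested. Among relatives of single members, 8 of 12 other S100 genes were higher in tumors, but S100a6 was not called (log2 difference 0.10 ± 0.22, limma, adjusted p = 0.795). Of 3 tested relatives of Fap, Dpp4 was higher (3.64 ± 0.86, limma, adjusted p = 0.0052) and Dpp8 and Dpp9 were not called.

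Genes of other host cells were higher in the tumors as well: 9 of 9 macrophage genes, 7 of 7 of blood endothelium, 6 of 7 of pericytes, 5 of 9 of T cells and 3 of 5 of lymphatic endothelium, but 0 of 7 epidermal genes, 2 of 6 of skeletal muscle and 1 of 4 tested of adipocytes. The part of these cells in the levels of the 10 genes was not tested. In MC38 cells, where 9 macrophage genes summed to at most 68.4, S100a4 was at 14433 and 17677 normalized counts. Without RAG1-/- day 13 tumors 1 and 3, which held the most skeletal muscle RNA, the same number of genes, 6 of 10, was called higher.

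**Figure D2:**
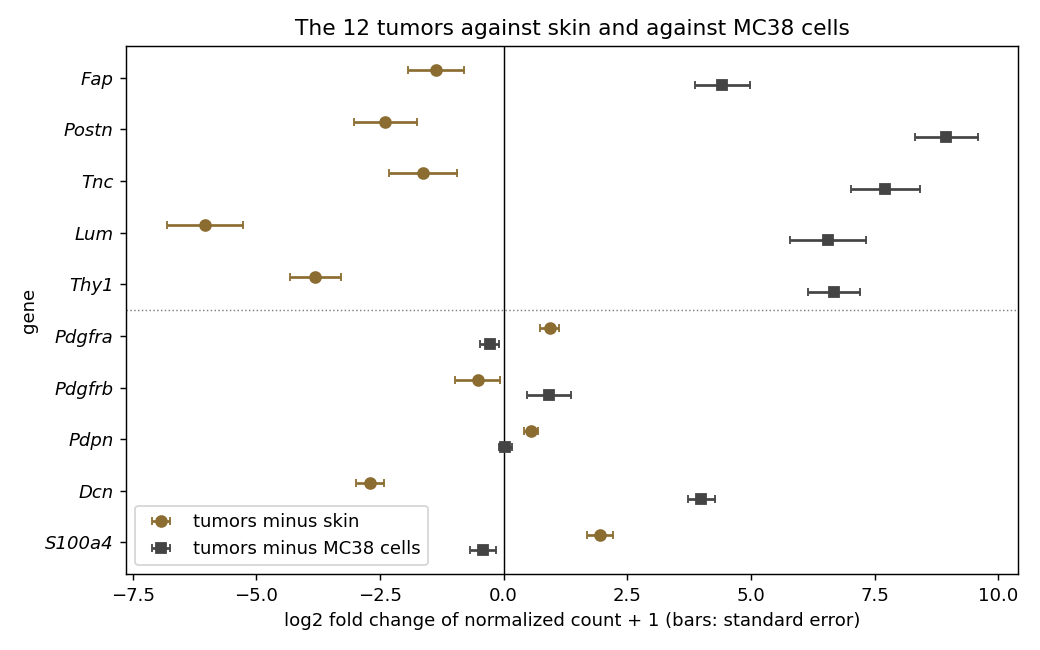
Log2 fold changes of normalized count plus 1 with standard errors, for the 12 tumors minus skin (circles) and minus MC38 cells (squares). The 5 genes above the dotted line, with at most 1 read per MC38 library, lie between 4.42 and 8.94 against MC38 cells, while Pdgfra, Pdgfrb, Pdpn and S100a4 lie between -0.41 and 0.91.

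The second comparison set the tumors against normal skin, the tissue beneath which they grew. S100a4, Pdgfra and Pdpn were higher in tumors, and Lum, Thy1, Dcn, Postn and Fap were lower. By limma over 16158 genes, 3 of 10 genes were called higher and 5 lower. Of all genes tested, 25.2% were called higher and 36.6% lower. The median log2 difference was -1.50 over the 10 genes and -0.18 over all genes. Scaling all libraries to the same total raised the median of all genes by 0.39 and turned the split of all calls from 4073 higher and 5913 lower to 5878 higher and 4452 lower, and left the direction of all 10 genes as it was. Scaling to the same upper quartile shifted the median by 0.17 here and by 0.12 against MC38 cells, where the split of all calls went from 2671 higher and 1294 lower to 2916 higher and 646 lower.

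Of the 10 genes Lum differed most. It stood at 6623 and 5714 normalized counts in skin and at 19.6 to 351 in tumors, whose mean was 2.15% of the skin mean (log2 fold change -6.04 ± 0.77, SE, limma, adjusted p = 5.09e-06). Thy1 stood at 1622 and 1265 in skin and at 26.2 to 379 in tumors, 8.45% of the skin mean (-3.80 ± 0.52, limma, adjusted p = 1.13e-05). Dcn stood at 37438 and 35767 in skin and at 3106 to 11408 in tumors, 16.6% of the skin mean (-2.70 ± 0.28, limma, adjusted p = 4.71e-07). For these 3 genes no tumor reached the lower skin library. They kept their call in 25 of 25 alternatives. The share of all genes without overlap between tumors and skin was not counted.

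The matricellular genes and Fap were closer to skin. Postn stood at 5344 and 4592 normalized counts in skin and at 296 to 2924 in tumors, 25.4% of the skin mean (log2 fold change -2.39 ± 0.64, SE, limma, adjusted p = 0.004). Without skin replicate 1 or 2 its adjusted p was 0.073 or 0.0548. Fap stood at 58.9 and 49.7 in skin, and wild-type day 46 tumor 3, at 54.6, overlapped it (-1.36 ± 0.56, limma, adjusted p = 0.0443). The call of Fap was lost in 15 of 25 alternatives, with adjusted p up to 0.21. Tnc stood at 488 and 868 in skin, and 3 tumors with 587 to 755 overlapped it (-1.63 ± 0.69, limma, adjusted p = 0.0506). It passed in 6 of 25 alternatives, over which its adjusted p ran from 0.00601 to 0.364. Pdgfrb stood at 472 and 493 in skin, within the tumors' range of 82.5 to 736 (-0.53, 95% interval -1.41 to 0.36, limma, adjusted p = 0.327).

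The 3 genes higher in tumors than in skin were also present in MC38 cells. S100a4 stood at 2089.7 and 4679.8 normalized counts in skin and at 6611 to 20840.0 in tumors, a ratio of means of 3.76 (log2 fold change 1.94 ± 0.26, SE, limma, adjusted p = 9.39e-06). Pdgfra stood at 510.4 and 556 in skin and at 743 to 1575 in tumors, a ratio of 1.96 (0.93 ± 0.19, limma, adjusted p = 0.000486). Pdpn stood at 1054 and 1154 in skin and at 1199.8 to 2103 in tumors, a ratio of 1.48 (0.55 ± 0.14, limma, adjusted p = 0.00212). No tumor overlapped the skin in these 3 genes, and each kept its call in 25 of 25 alternatives. Here too the share of all genes without overlap was not counted.

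Cultured MC38 cells against skin split the 10 genes in the same 2 directions. By limma, 3 genes were higher in MC38 cells (S100a4, Pdgfra and Pdpn) and 7 lower, where 22.2% of all genes were called higher and 37.9% lower. With the same total, which moved the median of all genes by 0.40, the split of all calls went from 3587 higher and 6120 lower to 5091 higher and 4966 lower, and no gene of the 10 changed direction. The median log2 difference was -6.24, or -5.50 with the 4 genes at 0 reads set at their bound, beside -0.28 over all genes. S100a4 was 4.74 times as high in MC38 cells as in skin (log2 fold change 2.35 ± 0.34, SE, limma, adjusted p = 2.14e-05), Pdgfra 2.32 times (1.21 ± 0.25, adjusted p = 0.000519) and Pdpn 1.43 times (0.52 ± 0.18, adjusted p = 0.0192). Lum was at least 2243-fold higher in skin than the MC38 floor, Thy1 at least 525-fold, Tnc at least 247-fold and Fap at least 19.8-fold. Postn was 5420 times as high in skin (counting interval 1500.3 to 44752), and Dcn 104 times. Pdgfrb, at 37.04% of the skin mean, was lower with an adjusted p of 0.0461 that missed the threshold in 9 of 14 alternatives. The call of Pdpn was lost in 3 of 14, without skin replicate 1 (adjusted p = 0.0957) or either MC38 library (0.0737 and 0.0692). This comparison shares its skin and MC38 libraries with the comparisons above, so the values of the 3 stand side by side and are not independent.

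Most genes of 4 lists were lower in tumors than in skin. They were 8 of 8 collagen genes, 7 of 8 myofibroblast genes, 7 of 11 inflammatory fibroblast genes and 5 of 8 other small leucine-rich proteoglycans. Of the other matricellular genes 5 of 11 were lower, not most of them, and of all genes 36.6% were. Higher in tumors were 1 of 8 myofibroblast genes, 3 of 11 inflammatory fibroblast genes and 3 of 11 matricellular genes. The last 2 shares lie near the 25.2% of all genes. The myofibroblast gene was Cnn2, calponin 2 (log2 fold change 0.37 ± 0.12, SE, limma, adjusted p = 0.0149). The inflammatory genes were the chemokine Cxcl1 (3.42 ± 0.34), the cytokine Lif (1.39 ± 0.53) and the hyaluronan synthase Has2 (1.21 ± 0.44), with limma adjusted p of 2.93e-07, 0.0312 and 0.0261. Col1a1 stood at a mean of 139997 ± 22743 (SD, n = 2) normalized counts in skin (log2 fold change -5.74 ± 0.76, SE, limma, adjusted p = 8.18e-06). The matricellular genes higher in tumors were Cyr61 (1.79 ± 0.50, limma, adjusted p = 0.00558), Fn1 (2.36 ± 0.32, limma, adjusted p = 9.06e-06) and Spp1, osteopontin (4.85 ± 0.47, limma, adjusted p = 2.66e-07). Cxcl1, Lif, Has2 and Cyr61 were named after their values were seen. Spp1 was not called against MC38 cells (-0.70 ± 0.47, limma, adjusted p = 0.319). Of the PDGF ligands, Pdgfa was higher in tumors (1.03 ± 0.19, limma, adjusted p = 0.000171) and Pdgfd lower (-2.98 ± 0.85, limma, adjusted p = 0.00624). S100a6 and S100a10 were higher in tumors like S100a4, by 1.15 ± 0.22 and 1.08 ± 0.15 (limma, adjusted p = 0.000239 and 1.31e-05), while 9 of 12 S100 genes were lower. Of 3 tested relatives of Fap, only Dpp4 was called, lower in tumors (-5.21 ± 0.86, limma, adjusted p = 7.49e-05). All 7 epidermal, all 6 skeletal muscle and 4 of 4 tested adipocyte genes were lower in tumors than in skin as well. All 9 T cell genes were lower too, as were 5 of 5 of lymphatic endothelium and 4 of 7 each of pericytes and blood endothelium, while 5 of 9 macrophage genes were higher and 1 lower. The part of these cells in the differences of the 10 genes from skin was not tested.

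Across the 12 tumors the genes differed in how far they varied. The ratio of the highest to the lowest tumor was 17.9 for Lum, 14.5 for Thy1, 12.0 for Tnc, 10.7 for Fap, 9.88 for Postn and 8.92 for Pdgfrb, but 3.67 for Dcn, 3.15 for S100a4, 2.12 for Pdgfra and 1.75 for Pdpn. The 5 genes with at most 1 read per MC38 library varied together. Over their 10 pairs, Pearson's r of log2(normalized count + 1) over 12 tumors ran from 0.62 to 0.95 with a median of 0.70, and Spearman's rho from 0.59 to 0.90. With the group means taken out, r ran from 0.36 to 0.94 with a median of 0.72. Postn and Lum had the highest r, 0.95, followed by Postn and Tnc with 0.93 and Lum and Tnc with 0.81.

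The 10 pairs among the genes that MC38 cells hold had r from -0.53 to 0.51 with a median of 0.14. The 25 mixed pairs ran from -0.60 to 0.57 with a median of -0.16. With the group means taken out, r ran from -0.35 to 0.74 with a median of 0.15 among the former. In the mixed pairs it then ran from -0.62 to 0.82 with a median of 0.07. On that measure the blocks overlapped: Fap had r of 0.82 with Pdgfrb and 0.79 with Dcn, but 0.36 with Tnc, and Pdgfrb had 0.74 with Dcn. Dcn, although a proteoglycan like Lum, had r of 0.01 with Lum and -0.07 with Postn. The values of a tumor share 1 library and its size factor, and these correlations over 12 tumors are a description with no test.

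**Figure D3:**
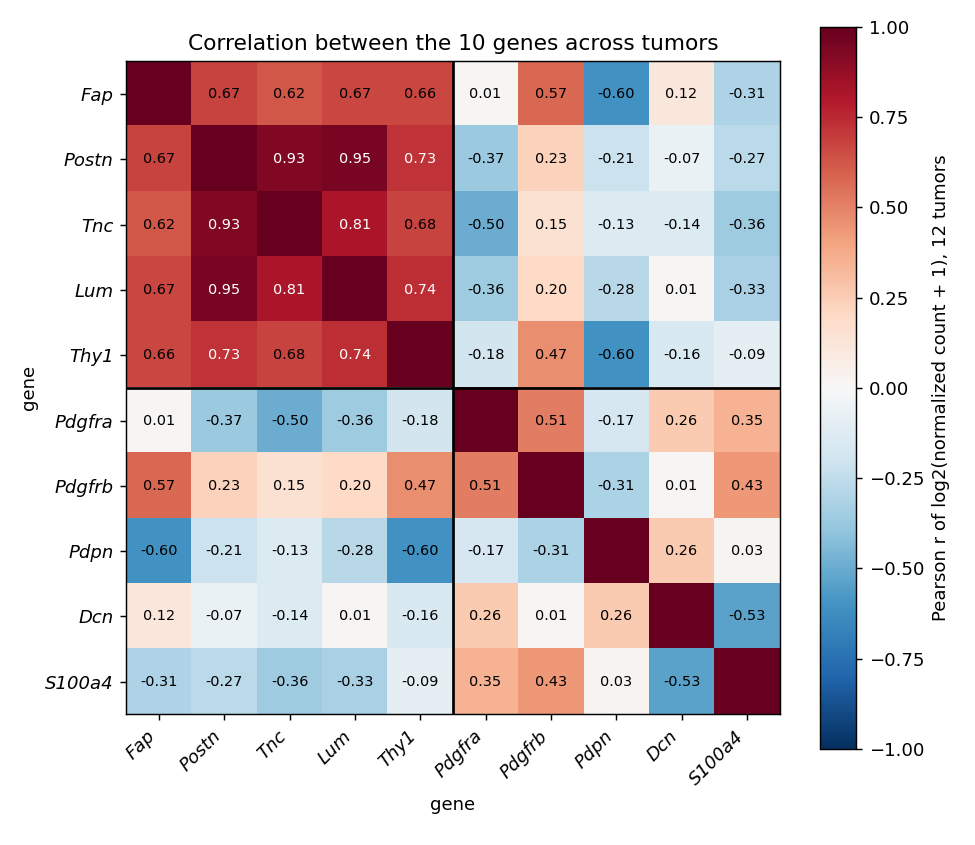
Pearson's r between the 10 genes over 12 tumors, on log2(normalized count + 1), with genes ordered by their reads in MC38 cells. The block of Fap, Postn, Tnc, Lum and Thy1 at the upper left holds r from 0.62 to 0.95, and the block of Pdgfra, Pdgfrb, Pdpn, Dcn and S100a4 at the lower right r from -0.53 to 0.51.

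The same tumors were high in Postn, Tnc and Lum. Wild-type day 46 tumors 1 and 2, RAG1-/- day 13 tumors 1 and 3 and RAG1-/- day 23 tumor 2 had 1864 to 2924 normalized counts of Postn, while the other 7 tumors had 296 to 692. In those 5 tumors Tnc was at 388 to 755 and Lum at 174 to 351. In the other 7, Tnc was at 63.2 to 151 and Lum at 19.6 to 101. Fap and Thy1 overlapped between the 5 and the 7. Fap was at 25.5 to 47.7 in the 5 and at 5.11 to 54.6 in the 7. Its highest value was in wild-type day 46 tumor 3, where Postn was at 480.3. Thy1 was at 96.3 to 379 in the 5 and at 26.2 to 127 in the 7. The tumors were ordered here by Postn after its values were seen, so no test is given. RAG1-/- day 23 tumor 1 was the lowest of 12 in Postn, Lum, Thy1 and Pdgfrb, and had the second lowest value of Fap.

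Skeletal muscle RNA went with this pattern in some tumors and not in others. It was highest in RAG1-/- day 13 tumors 1 and 3 (9436 and 9232), both high in Postn. Wild-type day 46 tumor 1 and RAG1-/- day 23 tumor 2, also high in Postn, had 56.7 and 61.7. These lie within the range of MC38 cells or just above it (47.9 to 59.6). Wild-type day 46 tumor 2, high in Postn, had 1473, and tumor 3 of that group, low in Postn, had 1412. Summed pericyte genes stood at 1202 to 2220 in the 5 tumors high in Postn and at 512 to 1138 in the other 7. This sum holds Cspg4, which was at 332 and 351 in MC38 cells and at 196 to 537 in tumors. Summed lymphatic endothelial genes stood at 99.7 to 170.1 in the 5 and 14.4 to 108 in the 7. Summed blood endothelial genes stood at 830 to 1538 in the 5 and 558 to 767 in the 7, without overlap, and summed adipocyte genes at 262 to 639 in the 5 and 119 to 402 in the 7. The part of these cells in the pattern was not tested.

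**Figure D4:**
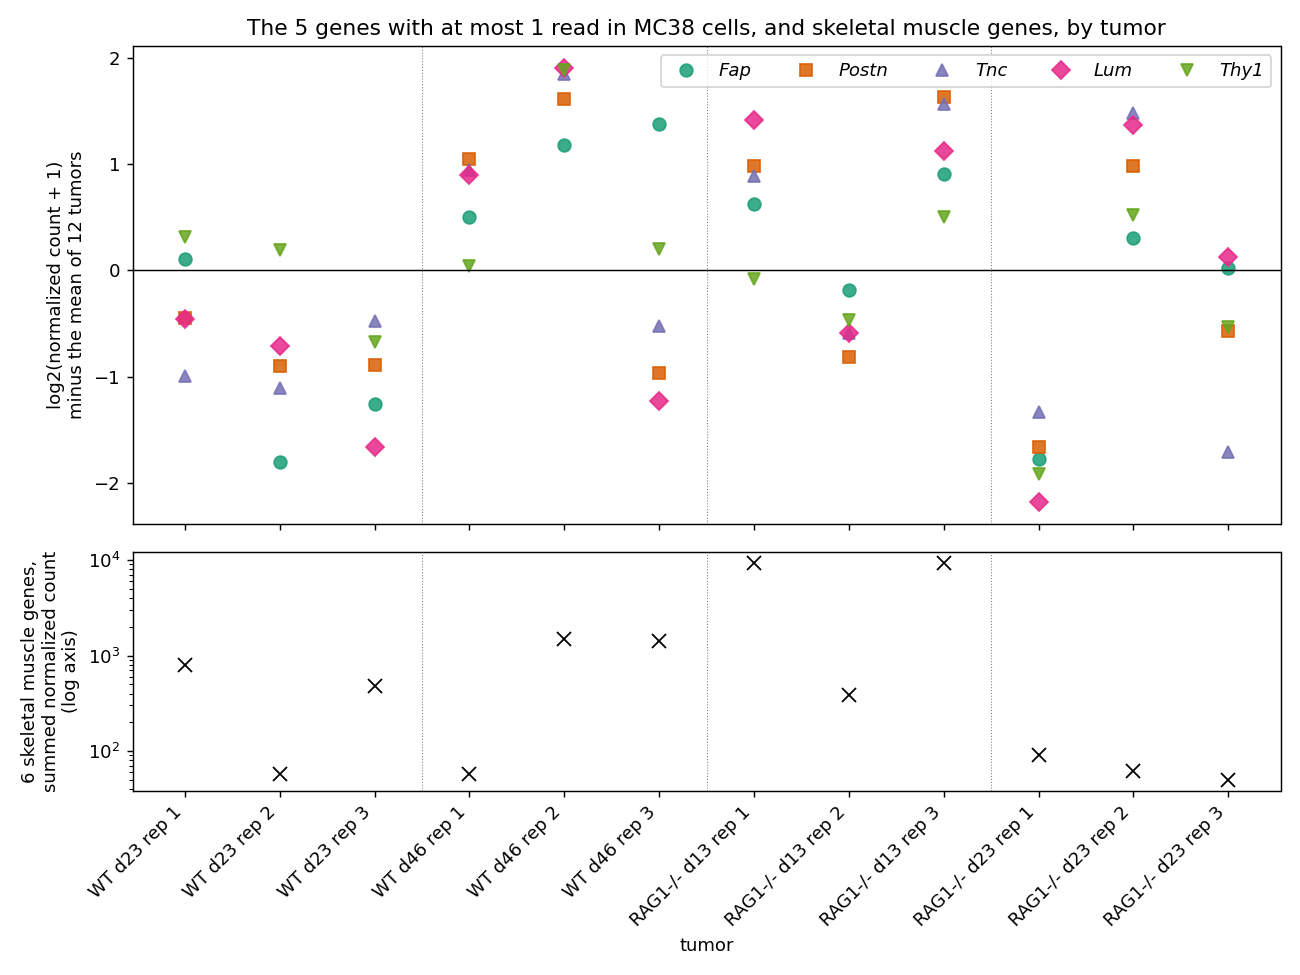
Upper panel: log2(normalized count + 1) of Fap, Postn, Tnc, Lum and Thy1 minus the mean over 12 tumors, for each tumor. Lower panel: summed normalized count of 6 skeletal muscle genes on a log axis. Postn and Tnc lie above their mean in the same 5 tumors, of which 2 have the most muscle RNA (9436 and 9232) and 2 have 56.7 and 61.7. Lum lies above its mean in these 5 and, by little, in RAG1-/- day 23 tumor 3 (101 normalized counts).

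Over the tumors, 12069 genes reached a mean normalized count of 20, and those whose pattern was most like a gene's were ranked by Pearson's r over the 12 tumors. Nearest to Tnc were Fndc1 (r = 0.98), P4ha3, a collagen prolyl hydroxylase subunit (0.95), and Fcna (0.95). Nearest to Postn were Thbd, thrombomodulin (0.95), the NADPH oxidase Nox4 (0.95) and Lum itself (0.95), and nearest to Lum were Postn (0.95), Thbd (0.94) and Nox4 (0.93). Fndc1, P4ha3, Thbd and Nox4 each had means under 1 normalized count in MC38 cells. Fap lay nearest to Mob3b (0.90), the protease Htra3 (0.90) and Loxl1, a collagen cross-linking enzyme (0.89). Mob3b, Htra3 and Loxl1 had means of 29.6, 9.78 and 0 normalized counts in MC38 cells and of 33.8, 111 and 87.3 in tumors. Thy1 lay nearest to Sepp1 (0.92), the chemokine Ccl8 (0.92) and Gpx3 (0.92), of which MC38 cells held means of 3.73, 6.48 and 0 normalized counts.

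Pdgfrb lay nearest to Aspn, asporin, another small leucine-rich proteoglycan (r = 0.95), Fstl1 (0.93) and Cst3, cystatin C (0.91). Aspn had a mean of 1.28 normalized counts in MC38 cells and 606 in tumors, although Pdgfrb itself was detected in MC38 cells. The genes nearest to the other 4 were detected in MC38 cells, with means from 172 (Tmem216) to 4724 (Lman2) normalized counts. They were Thra, Cd99l2 and Add1 for Pdgfra (0.89 to 0.90), Zxdb, Rab27b and Macrod2 for Pdpn (0.88 to 0.95), Tmem216, Pxdn and Ldhb for Dcn (0.88) and Nub1, Lman2 and Pknox1 for S100a4 (0.92). The ranking over 12069 genes and 12 tumors is a description, and the values of a tumor share its library.

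The next comparison asked whether the genes differed between hosts with and without T and B cells at the same day. The hosts also differ in strain, which cannot be told apart from the lack of these cells. At day 23, no gene passed the test between wild-type and RAG1-/- tumors. S100a4 came closest. It stood at 20840.0, 17747 and 17306 normalized counts in wild-type tumors and at 9613, 6611 and 9859 in RAG1-/- tumors, without overlap, 18631 ± 1926 against 8694 ± 1808 (SD, n = 3 each). Its log2 fold change was 1.12 ± 0.23 (SE, limma, adjusted p = 0.0571). MC38 cells, at 14433 and 17677, lay between the groups or within the wild-type range. Dcn went the other way, at 5645, 3769.6 and 5712 in wild-type tumors and 6191, 10488 and 11408 in RAG1-/- tumors, also without overlap (-0.87 ± 0.30, limma, adjusted p = 0.286). Pdgfrb stood at 715, 205 and 523 against 82.5, 292 and 351, which overlap (1.05 ± 0.49, limma, adjusted p = 0.443).

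Thus 0 of 10 genes were called at day 23 by limma, with 3 at an unadjusted p under 0.05, 0 by edgeR and 1, S100a4, by DESeq2 (adjusted p = 0.00156). Of 14746 genes tested, 0.278% were called in either direction, and for 1646 the limma p before adjustment was below 0.05. The groups did not overlap in 2 of 10 genes, beside 16.1% of all genes. S100a4 was also called with only these 6 tumors in the fit (adjusted p = 0.0273) and with the replicate number as a block (0.0273), and over its 16 alternatives its adjusted p ran from 0.00156 to 0.21. The median log2 difference of the 10 genes was -0.18, beside 0.01 for all genes.

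Over both days, S100a4 stood at 15802 ± 4535 normalized counts in 6 wild-type tumors and 9679 ± 1798 in 6 RAG1-/- tumors (SD), with overlap in wild-type day 46 tumors 2 and 3, at 9346 and 11068. Its log2 fold change was 0.67 ± 0.16 (SE, limma, adjusted p = 0.0831), and without wild-type day 46 tumor 2 it was 0.77 (adjusted p = 0.0448). Pdgfrb had means of 519.95 ± 207 and 258 ± 97.2 (1.02 ± 0.35, limma, adjusted p = 0.25), and Dcn of 4888 ± 1438 and 7249 ± 3057 (-0.51 ± 0.21, limma, adjusted p = 0.369). For Fap, Postn, Tnc and Lum the log2 differences lay between -0.42 and 0.03, with standard errors of 0.44 to 0.59. Without the 2 muscle-rich RAG1-/- tumors those of Postn, Tnc and Lum became 0.53, 0.50 and 0.20, with 1 tumor left in the day 13 group. In all, 0 of 10 genes were called by limma, with 3 at an unadjusted p under 0.05, 0 by edgeR and 1, S100a4, by DESeq2 (adjusted p = 0.00508) and with the replicate block (0.0306). Of all 14746 genes, 0.712% were called, and 1682 had an unadjusted p under 0.05. The median log2 difference was -0.03 over the 10 genes and 0.01 over all genes.

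Around these genes, the lists showed few calls between hosts over both days. Ly6c1 and Cspg4 were the genes called in the fibroblast and pericyte lists and are given for that reason. Ly6c1, of the inflammatory fibroblast list and also made by endothelium and leukocytes, was higher in wild-type tumors, 908 ± 497 against 269.6 ± 139 normalized counts (SD, n = 6 each; log2 fold change 1.85 ± 0.39, SE, limma, adjusted p = 0.037). Cspg4, of the pericyte list, was higher in wild-type tumors (0.91 ± 0.15, limma, adjusted p = 0.00964), at 319 to 537 normalized counts against 196 to 295, and MC38 cells held it at 332 and 351. T cell genes were higher in 5 of 6 tested. No gene of the collagen, myofibroblast, proteoglycan, matricellular, PDGF ligand or S100 lists was called by limma. Summed macrophage genes stood at 21695 to 32957 in wild-type and 15831 to 27248 in RAG1-/- tumors, and their part in the S100a4 values was not tested.

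**Figure D5:**
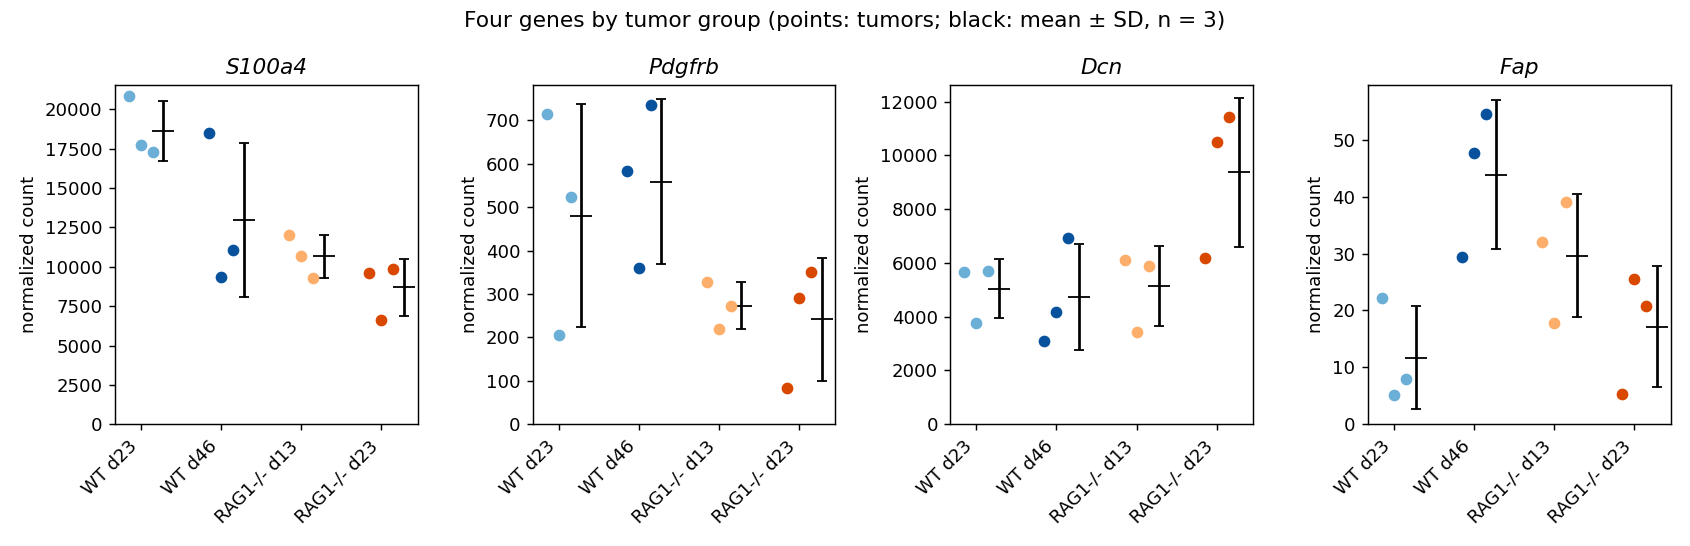
Normalized counts of S100a4, Pdgfrb, Dcn and Fap in the 12 tumors by group, with mean ± SD (n = 3) in black and axes from 0. At day 23, S100a4 is at 17306 to 20840.0 in wild-type and 6611 to 9859 in RAG1-/- tumors, and Fap is at 5.11 to 22.1 at day 23 and 29.3 to 54.6 at day 46 in wild-type tumors.

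The last comparisons concern time within a host. In wild-type tumors, Fap stood at 22.1, 5.11 and 7.92 normalized counts at day 23 and at 29.3, 47.7 and 54.6 at day 46, without overlap (log2 fold change 2.01 ± 0.62, SE, limma, adjusted p = 0.426). Tnc stood at 117 ± 29.2 and 435 ± 306 (SD, n = 3 each), with 145 at day 46 below the highest tumor of day 23 (1.61 ± 0.73, limma, adjusted p = 0.567). Postn stood at 568 ± 108 and 1769.7 ± 1210 (1.31 ± 0.69, limma, adjusted p = 0.63). S100a4 stood at 18631 ± 1926 and 12973 ± 4869 (-0.58 ± 0.23, limma, adjusted p = 0.515). No gene passed: 0 of 10 were called by limma, with 3 at an unadjusted p under 0.05, and 0 by edgeR or DESeq2. Limma called 0% of all 14746 genes, and for 1261 of them its p before adjustment was below 0.05. The groups did not overlap in 1 of 10 genes, beside 12.5% of all genes. The median log2 difference was 0.55 over the 10 genes and 0.00 over all genes.

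In RAG1-/- tumors, Dcn stood at 6112, 3422 and 5873 normalized counts at day 13 and at 6191, 10488 and 11408 at day 23 (log2 fold change 0.86 ± 0.30, SE, limma, adjusted p = 0.291). Pdgfra stood at 743, 773 and 808 at day 13 and 991, 823 and 1575 at day 23 (0.49 ± 0.22, limma, adjusted p = 0.392). The 3 tumors of day 13 lay close together in Pdgfra. Postn, Tnc, Lum and Fap had lower means at day 23 than at day 13, with log2 differences from -1.14 to -0.88 that did not pass. Without day 13 tumors 1 and 3, those of Postn, Tnc and Lum became 0.40, 0.07 and 0.36, values that set the 3 tumors of day 23 against 1 tumor of day 13, itself low in these genes. Here too 0 of 10 genes were called by limma, with 2 at an unadjusted p under 0.05, and 0 by edgeR or DESeq2. Among all 14746 genes limma called 0%, and for 1722 of them its p before adjustment was below 0.05. The groups did not overlap in 2 of 10 genes, beside 19.4% of all genes, and the median log2 difference was -0.52, beside -0.01 over all genes.

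Whether the late minus early change differed between hosts was tested as an interaction, although the days differ, 23 to 46 in wild-type and 13 to 23 in RAG1-/- mice. The log2 difference of the changes was 2.94 ± 0.87 for Fap (SE, limma, adjusted p = 0.4), 2.76 ± 1.03 for Tnc (0.5), 2.33 ± 0.97 for Postn (0.539) and -1.01 ± 0.43 for Dcn (0.548). These 4 of 10 genes had an unadjusted p under 0.05, and 0 were called by limma, edgeR or DESeq2. Of all 14746 genes 0% were called by limma, and 1279 had an unadjusted p under 0.05. Tumors of day 23 in wild-type mice and day 13 in RAG1-/- mice differ in age as well as host, so host and day cannot be told apart between them.

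Over the 6 groups, then, the order of mean levels can be read only in part. Skin was highest in Dcn, Lum, Postn and Thy1, without overlap with the next group, and highest in Fap and Tnc with overlap. MC38 cells were lowest, without overlap, in Fap, Postn, Tnc, Dcn, Lum and Thy1. Skin was lowest, without overlap, in Pdgfra, Pdpn and S100a4. How many of all genes have such gaps in the order of groups was not counted. Between tumor groups next to each other in the order of means, the only gaps without overlap were wild-type day 23 above RAG1-/- day 13 in Pdgfra and RAG1-/- day 23 above RAG1-/- day 13 in Dcn. Tumor groups further apart in that order were also free of overlap in places, as with S100a4 between hosts at day 23. For Pdgfrb no neighbours in the order were free of overlap, from wild-type day 46 tumors (559 ± 189, SD, n = 3) down to MC38 cells (179 ± 34.9, SD, n = 2).

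In GENCODE coordinates (GRCm38, to which mm10 is equal) the genes lie on chromosomes 2 (Fap, 62500943-62574075), 5 (Pdgfra, 75152292-75198215), 18 (Pdgfrb, 61045150-61085061), 4 (Pdpn, 143267431-143299564, and Tnc, 63959785-64047015), 3 (Postn, 54361109-54391037, and S100a4, 90603771-90606045), 10 (Dcn, 97479609-97518143, and Lum, 97565128-97572703) and 9 (Thy1, 44043384-44048579). Dcn and Lum lie close together on the same strand. In these data Lum had 0 reads in MC38 cells and Dcn 440 and 334. S100a4 shares 51.7% of its exonic bases with a same-strand gene model, Gm42674, and 60.4% of its last 500 exonic bases, where 3′ reads mostly fall. Gm42674 is listed at 0 in all 16 libraries, and whether reads in the shared part were left out of the counts was not tested. Of the other 9 genes only Pdgfra shares exonic bases on the same strand (0.299%, with Mir7025), and none shares any of its last 500 exonic bases.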

How the data were processed

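The authors sequenced QuantSeq 3′ mRNA libraries on the Ion Proton platform and trimmed reads with Cutadapt and Trimmomatic, removing those under 22 nucleotides. They aligned reads to mm10 with STAR and then Bowtie2, counted them per gene with HTSeq-count and divided the counts by DESeq2 size factors. The deposited signal is this normalized count. Tool versions, strand setting and annotation are not given in the sources used here. In all 16 libraries 100% of values were whole multiples (within 0.01) of 1 read, so reads were recovered. A table of antibody-treated tumors, with 6 columns whose names match no label, was not used.

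The 10 genes and the other gene lists were chosen with earlier results of these data known. Genes whose mean normalized count reached 5 were tested with limma 3.58.1 in R 4.3.3 (trend, log2(normalized count + 1), two-sided, Benjamini-Hochberg, threshold 0.05), with 16 libraries and 6 groups in the fit against skin or MC38 cells, all 12 tumors weighted by group, and 12 tumors and 4 groups for the rest. edgeR 4.0.16 and DESeq2 1.42.0 on recovered reads were alternatives. Others were pseudocounts of 0.1 and 5, testing all genes or those reaching a mean of 20, the same upper quartile or total, the replicate number as a block, only the groups compared in the fit, and each library left out. A setting without RAG1-/- day 13 tumors 1 and 3, which leaves that group with 1 tumor assumed to vary like the other groups, was chosen after seeing the data. The test was checked on simulated reads. Of each list, the 4 genes with the highest mean could be named with values. Those given were picked among these with their values known.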

Additional observations from a re-analysis of the deposited data

How the results depend on the processing

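The 10 genes over 8 comparisons gave 1489 values under an alternative that kept direction and side of the threshold, 13 that newly passed, 29 that no longer passed and 39 that changed sign, none of the last in a called gene. Of counts of called genes, 306 stayed within 1.5 times and 8 did not. The number lower than skin, 5, was 3 without either skin library, with Fap and Postn lost, and ran from 3 to 6 over libraries left out. The number higher in wild-type than RAG1-/- tumors, 0, was 1 (S100a4) with DESeq2, with the replicate block and with only the groups compared at day 23, and 1 with DESeq2, with the replicate block and without wild-type day 46 tumor 2 over both days, where it ran from 0 to 1 over libraries left out. The replicate numbers do not pair tumors, which come from different mice: deviations of same-numbered tumors correlated at -0.24 to 0.25, over 0.1 in 4 of 18 pairs, so the block result of S100a4 is given for completeness, and the block changed no other call between tumor groups. Calls over all genes at day 23 were 41, but 239 by DESeq2 and 22 by edgeR or with no filter, and over both days they were 105, but 283 by DESeq2 and 26 without the muscle-rich tumors. DESeq2 called 41 genes in wild-type tumors over time, 206 in RAG1-/- tumors and 58 for the interaction, where limma called 0. The causes were not tested.

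Signs that changed, all in uncalled genes, were at day 23 Pdpn at 0.0055 with the same upper quartile and Pdgfra at -0.0397 with edgeR and -0.0406 with DESeq2, and in RAG1-/- tumors over time Pdpn at -0.021 with the same total. Without the muscle-rich tumors, which leaves 1 RAG1-/- tumor of day 13, Postn, Tnc and Lum became 0.53, 0.50 and 0.20 between hosts over both days and 0.40, 0.067 and 0.36 in RAG1-/- tumors over time. Leaving out each library, log2 differences ran, at day 23, from -0.19 to 0.28 for Pdgfra, -0.18 to 0.085 for Pdpn, -0.95 to 0.37 for Postn, -0.93 to 0.66 for Tnc, -1.69 to 0.083 for Lum and -0.051 to 1.17 for Thy1. Over both days they ran from -0.29 to 0.24 for Fap, -0.54 to 0.20 for Postn, -0.41 to 0.40 for Tnc and -0.91 to 0.021 for Lum. In wild-type tumors over time they ran from -0.068 to 0.23 for Pdgfra, -0.19 to 0.71 for Pdgfrb and -0.46 to 0.12 for Dcn. In RAG1-/- tumors over time they ran from -0.79 to 0.25 for Pdgfrb, -1.68 to 0.096 for Lum and -1.21 to 0.0073 for Thy1. With 2 libraries of skin and of MC38 cells and 4 to 87 reads of Fap per library where detected, Fap is the least firmly measured.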
